A study of Mus musculus with 49 samples.

Results

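The genes described here encode proteins of the synaptic vesicle, of vesicle release, of synaptic adhesion and of the postsynaptic scaffold. They were chosen by name, and all 34 were found among the 24495 genes of the deposited expression table for mouse frontal cortex. By role they comprised 7 vesicle membrane and vesicle-associated genes, 3 synaptotagmins, 6 SNARE and complexin genes, 6 active zone genes, 5 neurexins and neuroligins, and 7 scaffold genes. The study profiled 49 libraries in 5 groups, and all animals received a high fat diet. The WT animals had 2 months of the diet in 9 libraries and 4 months in 10 libraries. A further 10 libraries came from animals labelled AKO, which the labels' protocols spell out as amylin knockout, after 4 months of diet. The remaining 20 libraries came from mice carrying a conditional human amylin transgene, also after 4 months of diet, of which 10 had been injected with vehicle and 10 with tamoxifen. Brains of the injected mice were collected 2 months after the injection. Amylin is a pancreatic peptide hormone, and tamoxifen is the drug commonly used to switch on a conditional allele through Cre recombinase. The labels name neither the promoter of the transgene nor the Cre driver, and they give no strain, sex or age.

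Neurotransmitter is stored in synaptic vesicles and released when calcium triggers the fusion of a vesicle with the presynaptic membrane. Fusion is driven by SNARE proteins on both membranes, is clamped and promoted by complexins, and is timed by synaptotagmins, the calcium sensors. Vesicles dock and are primed at the active zone, a protein scaffold that faces the postsynaptic density across the synaptic cleft. Neurexins on the presynaptic side bind neuroligins on the postsynaptic side, and scaffold proteins hold receptors and neuroligins in place. In bulk tissue, fewer cells of a type and less RNA per cell cannot be told apart.

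Upstream sequence is shown for 4 members on which the results turn. Syn1 and Nlgn2 had lower levels after the longer diet in WT, and Vamp1 and Syt2 varied together across libraries. RefSeq windows of 250 bases before a gene's start (GRCm38.p6) were matched for 25 of the 34 members, in 39 windows. Members with no matched window were Syn3, Syt7, Snap25, Vamp2, Rims2, Nrxn2, Nlgn3, Shank1 and Shank2. The windows below are written 5′ to 3′ on the strand of the gene. They lie at chrX:20920919-20921168 on the minus strand for Syn1, at chr11:69837785-69838034 on the minus strand for Nlgn2, at chr6:125215331-125215580 on the plus strand for Vamp1, and on the plus strand at chr1:134646362-134646611 and chr1:134709050-134709299 for the pair of Syt2 starts. Capitals mark TGACGTCA and TTCAGCACC in Syn1 and the GC box GGGCGG, or its complement on the other strand, in the rest.
Syn1: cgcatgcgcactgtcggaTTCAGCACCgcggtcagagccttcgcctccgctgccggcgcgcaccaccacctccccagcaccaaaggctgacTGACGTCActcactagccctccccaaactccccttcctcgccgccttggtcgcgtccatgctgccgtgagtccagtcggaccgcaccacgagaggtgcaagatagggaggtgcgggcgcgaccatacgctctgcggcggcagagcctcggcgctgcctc
Nlgn2: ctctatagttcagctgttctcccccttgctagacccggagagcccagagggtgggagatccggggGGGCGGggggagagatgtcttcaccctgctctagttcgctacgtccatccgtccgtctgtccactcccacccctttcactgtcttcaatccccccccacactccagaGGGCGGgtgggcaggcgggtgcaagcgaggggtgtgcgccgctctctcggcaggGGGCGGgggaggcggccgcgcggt
Vamp1: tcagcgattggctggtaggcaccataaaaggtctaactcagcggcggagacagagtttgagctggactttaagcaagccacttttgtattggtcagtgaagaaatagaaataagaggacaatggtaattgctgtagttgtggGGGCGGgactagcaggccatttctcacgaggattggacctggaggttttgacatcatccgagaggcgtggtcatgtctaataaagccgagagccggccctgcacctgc
Syt2, upstream start: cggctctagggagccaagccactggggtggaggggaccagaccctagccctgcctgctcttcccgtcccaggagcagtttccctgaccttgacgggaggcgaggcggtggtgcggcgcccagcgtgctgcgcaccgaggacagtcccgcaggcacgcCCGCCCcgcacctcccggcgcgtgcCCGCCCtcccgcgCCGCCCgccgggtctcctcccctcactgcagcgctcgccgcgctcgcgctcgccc
Syt2, downstream start: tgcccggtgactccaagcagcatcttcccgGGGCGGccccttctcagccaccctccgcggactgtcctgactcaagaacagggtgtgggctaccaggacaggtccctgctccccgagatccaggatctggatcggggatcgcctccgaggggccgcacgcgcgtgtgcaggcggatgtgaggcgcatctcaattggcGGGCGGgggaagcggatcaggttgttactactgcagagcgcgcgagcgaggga
The cAMP response element TGACGTCA was found 159 bases before the Syn1 start and in no other member with a window. It was found in 1.55% of all 32851 RefSeq windows of the same length, both strands searched. The left arm of the RE1 element, TTCAGCACC, began 232 bases before the Syn1 start and was also found in Nlgn1, against 0.301% of all windows. The longer RE1 core, which contains that arm, was found in 0 members and in 0.00913% of all windows. A GC box was found in 19 of the 39 windows, against 32.7% of all windows, and the TATA box letters TATAAA in 4 of 39, against 12.4%. The median GC content was 56.8% in the members' windows and 52.4% in all windows. These matches describe the letters of the windows, and no binding was measured.

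Depth ranged from 29.2 M to 75.6 M reads per library, with a median of 42.0 M (M, mega). The lowest read number for any member in any library was 197, for Sv2c. Markers of cortical excitatory neurons, inhibitory neurons, oligodendrocytes, astrocytes, microglia and endothelium had reads in all 49 libraries, and so did olfactory bulb and striatal markers such as Doc2g and Drd1. The mouse amylin gene Iapp had 596 reads in the libraries labelled AKO, with 36 to 116 reads in each of the 10. The remaining groups held 1 Iapp read among them, in a vehicle library. Which part of the gene was deleted is not given in the labels, so whether these reads fit the label cannot be told, and the 10 are called by it, as labelled AKO. Nothing in the labels says that the libraries of a group came from separate animals, so p-values measure only the spread between these libraries.

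Some libraries stood apart in the members as a group. The mean z-score of the 34 members, each gene scaled over the 49 libraries, was lowest in tamoxifen library 9 at -1.62 and in vehicle library 3 at -1.45. It was also low in library 6 labelled AKO at -1.19 and in WT 2-month library 37 at -1.03. Cortical excitatory neuron markers were lowest in tamoxifen library 9 (mean z-score -2.69), vehicle library 3 (-2.56) and vehicle library 1 (-1.08), and olfactory bulb markers were high in the same 3 libraries (1.65, 2.55 and 2.22). Their part in the members' levels was not tested, and the members' counts and medians are also given with single libraries of this kind left out. In the scatter of member against marker levels, tamoxifen library 9 and vehicle library 3 lie at the low end of both. Vehicle library 1 was less low in the members (-0.51). Library 6 labelled AKO and WT 2-month library 37 were less low in the excitatory markers (-0.27 and -0.40).

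**Figure D1:**
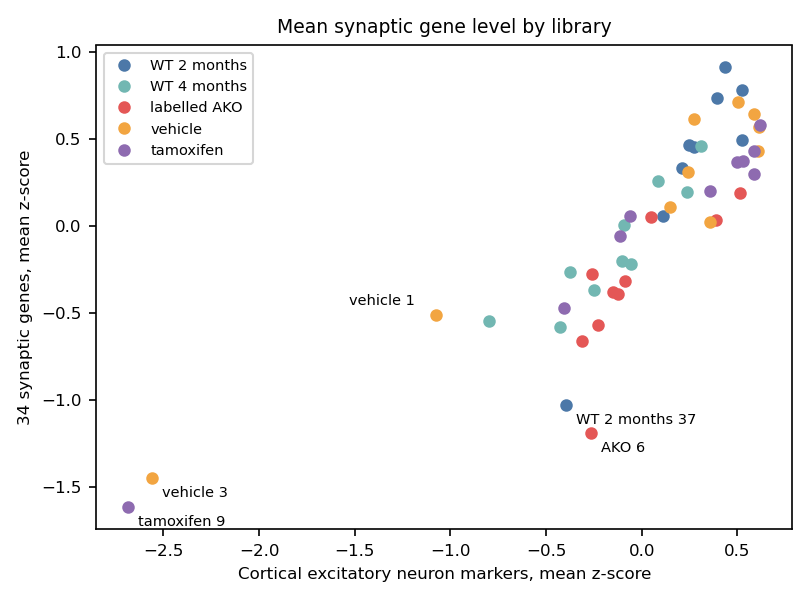
Each point is 1 of the 49 libraries, coloured by group. The x axis is the mean z-score of 12 cortical excitatory neuron markers and the y axis that of the 34 synaptic genes; tamoxifen 9 (-2.69, -1.62) and vehicle 3 (-2.56, -1.45) lie far from the rest, and WT 2 months 37 and AKO 6 are low on the y axis.

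The members spanned a wide range of transcript levels, here given as normalised reads per kb of merged exons so that genes can be compared. Normalised reads are the deposited reads divided by a size factor for the library, and exon lengths come from GENCODE M21 (GRCm38). The highest level was that of Snap25, the membrane-bound SNARE of the presynaptic terminal, at 22402 ± 2637 (SD, n = 49). The lowest was that of Sv2c, a vesicle glycoprotein, at 64.3 ± 21.7 (SD, n = 49). Merged exons include rare transcripts, so the level per kb of a gene with many annotated exons is understated.

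Among the vesicle genes, Syp, an abundant membrane protein of the vesicle, had 14759 ± 1000.4 normalised reads per kb (SD, n = 49). The synapsins are phosphoproteins that tether vesicles into a reserve pool. Per kb, Syn1 exceeded Syn2 by a median ratio of 2.31 (range 1.86 to 4.25 over the 49 libraries) and Syn3 by 54.3 (37.5 to 117). Of the SV2 glycoproteins, Sv2b reached 0.774 of the Sv2a level at the median (0.260 to 0.967), and Sv2a exceeded Sv2c 82.0-fold (39.6 to 181). Each of these sets was thus dominated by 1 or 2 members in every library.

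The calcium sensors were ordered in the same way in all libraries. Syt1, the fast sensor of forebrain synapses, exceeded Syt7, a slower sensor of high calcium affinity, by a median ratio of 4.46 (3.93 to 5.22 per kb). It exceeded Syt2, a fast sensor best known from the hindbrain and from parvalbumin interneurons, by 40.9 (26.0 to 145). In the fusion machinery, the vesicle SNARE Vamp2 exceeded its paralogue Vamp1 24.1-fold per kb (17.5 to 64.6). The complexins Cplx1 and Cplx2 were close, with a median Cplx2 to Cplx1 ratio of 0.954 (0.289 to 1.19). Stx1a, the partner of Snap25 on the presynaptic membrane, had 5149 ± 1009.6 normalised reads per kb (SD, n = 49).

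Active zone genes lay below the abundant vesicle and fusion genes. Unc13a, a priming factor, had 1233 ± 165 normalised reads per kb (SD, n = 49) and exceeded its paralogue Unc13b by a median ratio of 17.3 (13.5 to 21.6). The giant scaffold Bsn had 1038 ± 202 and its relative Pclo 267 ± 49.7 (SD, n = 49). Rims1 had 985 ± 198 and Rims2 531 ± 44.2 normalised reads per kb (SD, n = 49). The RIM proteins link calcium channels to docked vesicles.

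Of the adhesion genes, Nlgn2, the neuroligin of inhibitory synapses, had the highest level at 1709 ± 162 normalised reads per kb (SD, n = 49). It exceeded Nlgn1, the neuroligin of excitatory synapses, by a median ratio of 6.41 (5.46 to 8.94). Nlgn3 had 289 ± 22.2, and 41.2% of its merged exon bases also belong to exons of the annotated gene Gm21986 on the same strand, so its reads are uncertain. Nrxn2 had 1321 ± 143 normalised reads per kb (SD, n = 49) and exceeded Nrxn3 by a median ratio of 2.05 (1.65 to 2.57). The neurexins and neuroligins thus spanned 265 to 1709 normalised reads per kb, and the postsynaptic scaffolds 321 to 2193.

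Dlg4, which encodes PSD-95, had 2193 ± 179 normalised reads per kb (SD, n = 49) and exceeded Dlg2 by a median ratio of 1.81 (1.61 to 2.59). Shank1 had 1589 ± 253, Shank3 1265 ± 178 and Shank2 475 ± 78.1 (SD, n = 49). The Shank proteins form the deep layer of the postsynaptic density. Gphn, the gephyrin scaffold of inhibitory synapses, had 914 ± 61.2 normalised reads per kb and Homer2, a binding partner of Shank and of metabotropic glutamate receptors, 321 ± 63.5 (SD, n = 49). The plot of levels shows these ranges side by side.

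**Figure D2:**
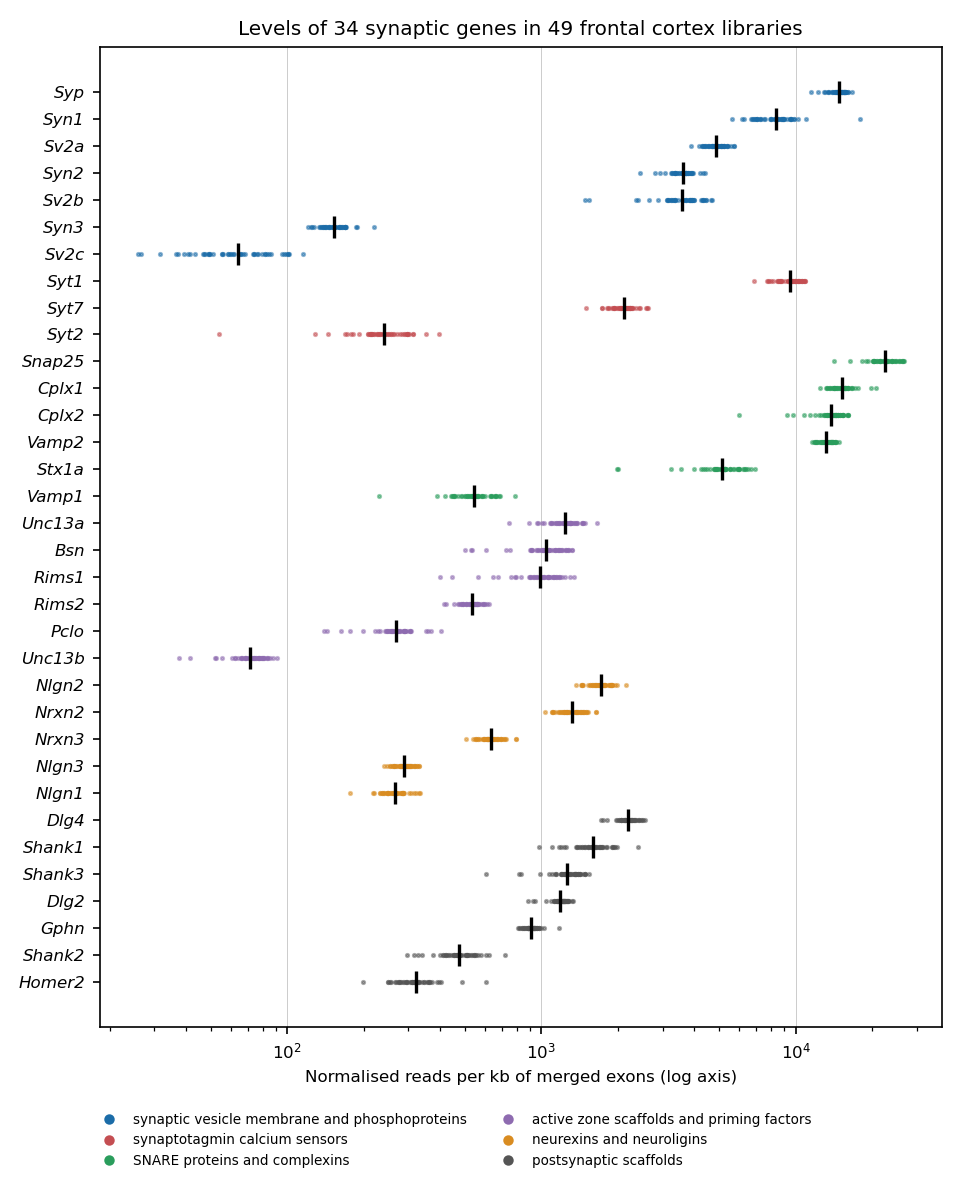
Levels of the 34 genes, ordered by role and then by level: each dot is 1 of 49 libraries, each bar the mean, and the x axis is normalised reads per kb of merged exons on a log scale. Means run from 64.3 for Sv2c to 22402 for Snap25, and single libraries lie far below the rest for Sv2b, Syt2, Cplx2, Stx1a and Vamp1.

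The members also differed in how much they varied between libraries of a group. The within-group SD of the deposited log2 value was smallest for Vamp2 at 0.065 and Gphn at 0.086. It was largest for Sv2c at 0.50, Syt2 at 0.41, Stx1a at 0.36, Rims1 at 0.36, Bsn at 0.35 and Sv2b at 0.34. The median over the 34 members was 0.174, against 0.122 over the 9179 genes within the members' range of mean levels.

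For 10 listed relations of members with each other or with markers, values were centred on the group mean and correlated over the 49 libraries. P-values came from 100000 permutations within groups, for which 1e-05 is the smallest possible, and were adjusted over the 10 relations by the Benjamini-Hochberg method. All points of a relation share the library, its depth and its dissection. Syt2 and Vamp1 varied together (r = 0.907, rho = 0.836, adjusted permutation p = 1.4e-05 and 1.7e-05), and r was 0.811 without vehicle libraries 3 and 10. Within groups r ranged from 0.684 to 0.984. Vamp1 also varied with Pvalb, the marker of parvalbumin interneurons (r = 0.810, rho = 0.736, adjusted permutation p = 1.4e-05 and 1.7e-05), with r = 0.663 without the same libraries and 0.501 to 0.955 within groups. Syt2 followed Pvalb less evenly (r = 0.714, rho = 0.577, adjusted permutation p = 6.2e-05 and 3.3e-05). Its r was 0.467 without these libraries and was 0.026 within the libraries labelled AKO.

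Sv2b varied with Slc17a7, the vesicular glutamate transporter of cortical excitatory neurons (r = 0.944, rho = 0.864, adjusted permutation p = 1.4e-05 and 1.7e-05). Without vehicle library 3 and tamoxifen library 9, r was 0.886, and within groups it ranged from 0.656 to 0.982. The active zone relatives Bsn and Pclo varied together (r = 0.865, rho = 0.738, adjusted permutation p = 1.4e-05 and 1.7e-05). Without vehicle library 3 and WT 2-month library 37 their r was 0.783, and within groups it was 0.526 to 0.951. For these pairs and for Syt2 and Vamp1, only the 2 libraries farthest from the median were left out for the second r, and other low libraries stayed in.

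**Figure D3:**
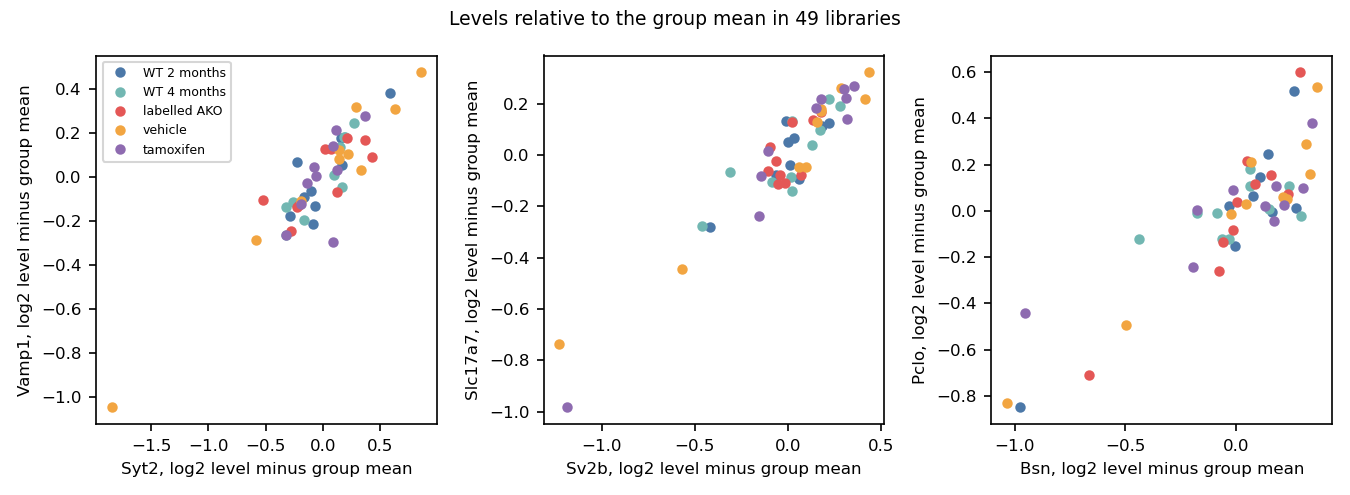
Each point is 1 of 49 libraries, coloured by group, and both axes are log2 levels minus the group mean. Syt2 and Vamp1 (r = 0.907), Sv2b and Slc17a7 (r = 0.944), and Bsn and Pclo (r = 0.865) vary together, with 1 to 4 libraries far below the rest in each panel.

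Other members varied with markers of neighbouring brain regions. Sv2c varied with the mean z-score of 14 striatal projection neuron markers (r = 0.624, rho = 0.635, adjusted permutation p = 1.4e-05 and 2.5e-05). Its r was 0.548 without vehicle library 5 and tamoxifen library 18, and 0.270 to 0.879 within groups. Homer2 ran opposite to the striatal markers (r = -0.706, rho = -0.698, adjusted permutation p = 1.4e-05 and 1.7e-05), with r = -0.687 without vehicle library 3 and WT 2-month library 37, and -0.797 to -0.663 within groups. It ran with the olfactory bulb markers (r = 0.594, rho = 0.579, adjusted permutation p = 6.7e-05 and 2.5e-05), with r = 0.601 without those libraries, and 0.130 to 0.835 within groups. Nrxn3 varied with 15 inhibitory neuron markers (r = 0.648, rho = 0.648, adjusted permutation p = 1.4e-05 and 1.7e-05). Without library 12 labelled AKO and WT 2-month library 37, its r was 0.733, and within groups it was 0.386 to 0.822. No relation of Stx1a with 14 immediate early genes was detected (r = -0.027, rho = -0.092, adjusted permutation p = 0.887 and 0.559). For it, r was -0.207 without tamoxifen library 9 and vehicle library 3, and -0.297 to 0.187 within groups.

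The comparison of WT libraries at 4 and at 2 months asked how the members changed with the longer diet. Diet duration and the animals' age cannot be told apart in it. Nrxn2, Nlgn2 and Syn1 fell, by 0.26, 0.19 and 0.23 on the log2 scale, and no member rose. These 3 of 34 lower calls at a Benjamini-Hochberg adjusted p under 0.05 (limma) stand beside 4.18% of the 15159 genes tested that were called lower, 4.6% called higher and 8.77% called in either direction. Differences below 0 were seen for 28 of the 34 members, against 49.1% of all genes tested. The members' median difference was -0.092, against 0.0033 for all genes. It was -0.12 without WT 2-month library 37, the lowest of its group in the members' mean z-score, with 33 members below 0.

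Nrxn2, a presynaptic adhesion receptor, had log2 levels from 14.11 to 14.47 with a median of 14.29 at 2 months, and from 13.89 to 14.20 with a median of 14.002 at 4 months. Only 1 of the 10 libraries at 4 months reached the range of the 2-month libraries. Its difference was -0.26 (SE 0.045, 1.20-fold lower, limma adjusted p = 0.0035). Nlgn2 ranged from 13.26 to 13.60 (median 13.33) at 2 months and from 13.03 to 13.38 (median 13.18) at 4 months, a difference of -0.19 (SE 0.051, 1.14-fold lower, limma adjusted p = 0.025). Syn1 ranged from 14.49 to 15.14 (median 14.85) at 2 months and from 14.45 to 14.82 (median 14.67) at 4 months. Its difference was -0.23 (SE 0.070, 1.17-fold lower, limma adjusted p = 0.047), close to the threshold. WT 2-month library 37 was the lowest of its group for Syn1. Reads of 6.44% of the Nrxn2 exon bases could also belong to genes on the other strand, and whether counting used strand is not given in the labels.

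By role, the 6 fusion genes and 3 calcium sensors all had differences below 0, as did 5 of 6 active zone genes, 6 of 7 scaffold genes, 5 of 7 vesicle genes and 3 of 5 adhesion genes. Apart from Syn1, Nrxn2 and Nlgn2, none passed the test. At an unadjusted p under 0.05, 11 members were lower, against 13.3% of all genes, and 1 was higher, against 14%. The 4 with the smallest p after the called genes were Dlg4, Vamp2, Syt7 and Syp. Dlg4 ranged from 14.84 to 15.05 (median 14.92) at 2 months and from 14.68 to 15.03 (median 14.80) at 4 months, a difference of -0.12 (SE 0.041, limma adjusted p = 0.064). Vamp2 ranged from 15.60 to 15.73 (median 15.65) and from 15.47 to 15.66 (median 15.57), a difference of -0.090 (SE 0.030, limma adjusted p = 0.064). The ranges overlapped over much of their length for Dlg4, and only from 15.60 to 15.66 for Vamp2. Syt7 ranged from 13.67 to 14.27 (median 14.03) and from 13.74 to 14.02 (median 13.89), a difference of -0.16 (SE 0.056, limma adjusted p = 0.073). Syp ranged from 16.18 to 16.35 (median 16.28) and from 16.09 to 16.30 (median 16.20), a difference of -0.082 (SE 0.033, limma adjusted p = 0.109). Exons of Gm14703 on the other strand share 16.8% of the Syp exon bases, so some Syp reads could belong to that gene. Sv2c was the member with an unadjusted p under 0.05 in the other direction, at 0.34 (SE 0.14, limma adjusted p = 0.127).

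WT 2-month library 37 was the lowest of its group in the members' mean z-score (-1.03), so leaving it out deepens their mean fall by construction. Without it, an alternative added after the data were seen, 14 members were lower, against 10.1% of the 15188 genes then tested. These were Nrxn2, Nlgn2, Syn1, Syt7, Shank1, Rims2, Syn3, Shank2, Rims1, Unc13a, Sv2b, Dlg4, Vamp2 and Syt1. In that fit Nrxn2 differed by -0.28 (SE 0.043, limma adjusted p = 0.00064) and Syn1 by -0.28 (SE 0.059, limma adjusted p = 0.0042). Without WT 4-month library 22, 5 members were lower, against 5.32% of the 15154 genes then tested. The Syn1 call was lost when any of 13 single libraries was left out: WT 4-month libraries 12, 13, 15, 23, 24 and 25 and WT 2-month libraries 32, 33, 34, 35, 36, 38 and 39, with limma adjusted p from 0.056 to 0.091. It was also lost with no filter on low values (limma adjusted p = 0.062) and with all 49 libraries in 1 model (0.205). With WT 4-month libraries numbered 11 to 15 alone, Dlg4, Nrxn2 and Nlgn2 were lower, against 3.78% of all genes then tested. With those numbered 21 to 25 alone no member passed, where 0.0902% of all genes tested were called lower. Nrxn2 then differed by -0.24 (limma adjusted p = 0.085).

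Genes of the same pathways outside the 34 were counted from longer lists. Of 52 other vesicle release genes 9 fell, with 41 below 0, among them Scamp5 at -0.13, Doc2a at -0.39, Syt12 at -0.32 and Syt3 at -0.15. Of 42 other synaptic adhesion genes 5 fell, among them Clstn3 at -0.24, Ptprs at -0.18, Adgrl1 at -0.17 and Lrrc4b at -0.14. Of 28 tested scaffold genes (30 listed) 4 fell, namely Lhfpl4, Nrgn, Tnik and Iqsec1, by 0.16, 0.35, 0.22 and 0.19. No gene of these 3 lists rose. Of the 12 cortical excitatory neuron markers 2 fell, Neurod2 and Slc17a7, and 10 were below 0 (median -0.19, summed level 86355 to 115035 normalised reads at 4 months and 94783 to 127436 at 2 months). Of 14 pan-neuronal markers 1 fell (Tubb3), with 13 below 0 and summed levels of 251679 to 316472 and 258772 to 349397.

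Some markers of other cell types rose at 4 months. Of 12 microglia markers 7 rose, of 12 astrocyte markers 5 and of 10 endothelial markers 4. All 14 myelinating oligodendrocyte markers were above 0 (median 0.27, summed level 180260 to 221723 normalised reads at 4 months and 101400 to 220471 at 2 months), and Opalin rose. All 9 tested choroid plexus markers (median 0.63) and 9 of 15 inhibitory neuron markers (median 0.18) were above 0, with none called in either list. All 12 olfactory bulb markers were above 0 with a median of 0.86 and none called, and their summed level ranged from 9586 to 46463 normalised reads at 4 months and from 7914 to 24593 at 2 months. Of 14 striatal markers 13 were above 0 (median 0.51, summed level 16660 to 93167 and 18096 to 99931). With the olfactory bulb and striatal levels as covariates in limma, 1 member, Nrxn2, was lower, against 0.383% of all genes. In that fit Syn1 differed by -0.13 (SE 0.065, limma adjusted p = 0.326), and the members' median was -0.025 with 22 below 0. The part of the remaining lists in the members' differences was not tested.

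**Figure D4:**
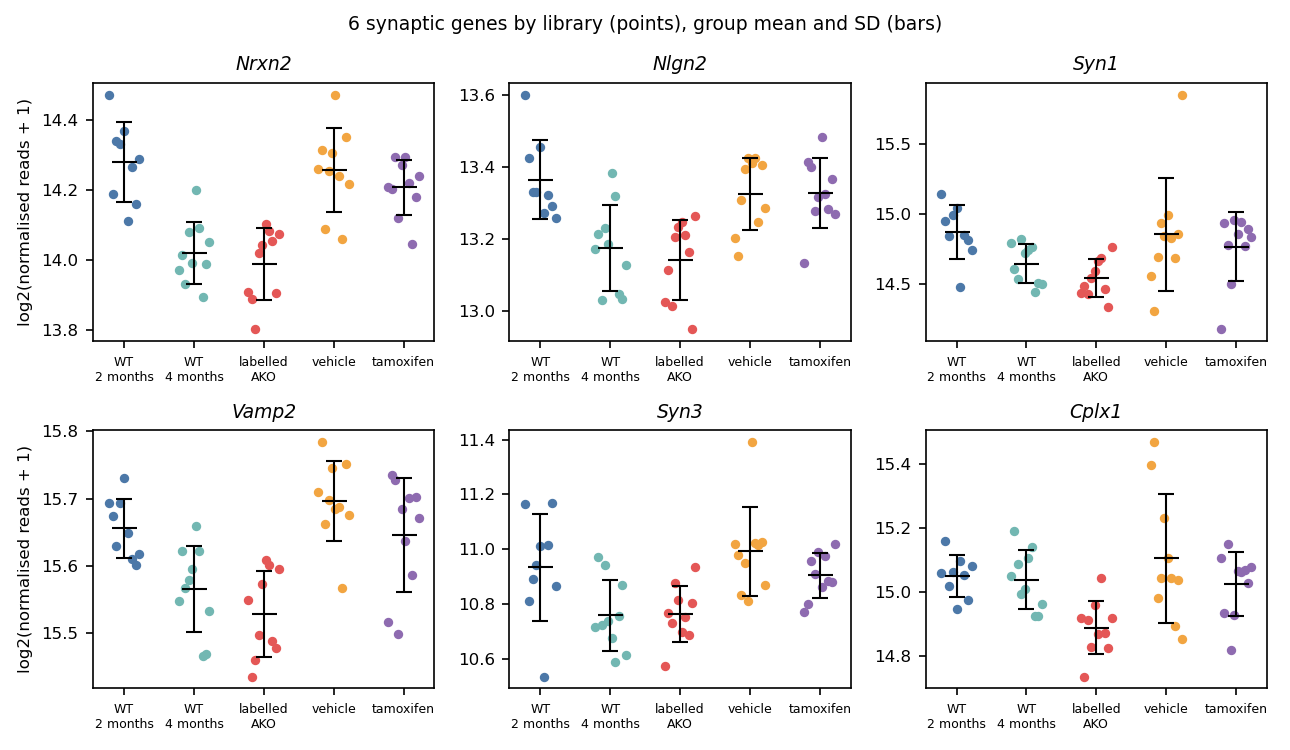
Log2 levels of 6 members by library (points) with the group mean and SD (bars) in the 5 groups; the y axis is log2(normalised reads + 1) and differs between panels. Nrxn2 averages 14.28 in 2-month WT, 14.02 in 4-month WT and 14.26 in the vehicle group, and Syn1 and Syn3 each have 1 vehicle library far above the rest.

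The vehicle-injected transgenic libraries were compared with WT libraries at 4 months of diet. Transgene, injection and any difference in strain cannot be told apart in it, and it shares the WT 4-month libraries with the previous comparison and the next. Nrxn2, Vamp2 and Syn3 rose, by 0.24, 0.13 and 0.23 on the log2 scale, and no member fell. These are 3 of 34 members, against 2.59% of the 15129 genes tested that were called higher, 3.61% called lower and 6.2% called in either direction by limma with Benjamini-Hochberg adjustment. Of the members 24 were above 0, against 49.9% of all genes, and their median difference was 0.036, against -0.00028 for all genes. The median was 0.082 without vehicle library 3, 0.017 without vehicle library 11 and 0.090 without vehicle libraries 1 and 3. In the members' mean z-score, vehicle libraries 1 and 3 were the lowest of their group and library 11 the highest.

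Nrxn2 ranged from 14.06 to 14.47 with a median of 14.26 in the vehicle libraries, against 13.89 to 14.20 in WT. Its difference was 0.24 (SE 0.048, 1.18-fold higher, limma adjusted p = 0.0058). Vamp2 ranged from 15.57 to 15.78 (median 15.69) against 15.47 to 15.66 (median 15.57), a difference of 0.13 (SE 0.034, 1.09-fold higher, limma adjusted p = 0.026). Vamp2 was the least variable of the members, and 9 of the 10 vehicle libraries lay above the highest WT library. Syn3 ranged from 10.81 to 11.39 (median 10.998) against 10.59 to 10.97 (median 10.73), a difference of 0.23 (SE 0.063, 1.17-fold higher, limma adjusted p = 0.032). The highest Syn3 value, in vehicle library 11, stood well above the next at 11.03. Exons of Timp3, which lies within Syn3 on the other strand, share 14.1% of the Syn3 exon bases. Timp3 itself differed by 0.0089 (SE 0.086, limma adjusted p = 0.973).

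By role, all 5 adhesion genes and 6 of 7 vesicle genes had differences above 0, as did 5 of 7 scaffold genes, 3 of 6 fusion genes, 3 of 6 active zone genes and 2 of 3 calcium sensors. At an unadjusted p under 0.05, 7 members were higher, against 10.1% of all genes, and 1 lower, against 11%. Apart from the called genes these were Syt7 at 0.14 (SE 0.044, limma adjusted p = 0.070), Nlgn2 at 0.15 (SE 0.049, 0.073), Rims2 at 0.12 (SE 0.040, 0.081), Nrxn3 at 0.13 (SE 0.055, 0.184) and Vamp1 at -0.30 (SE 0.14, 0.220). Vamp1 was at -0.18 without vehicle library 3 and at -0.13 without vehicle libraries 1 and 3, where Nrxn3 was at 0.071. Nlgn2 ranged from 13.15 to 13.42 (median 13.35) in the vehicle libraries, which overlapped the WT range of 13.03 to 13.38. Syt7 ranged from 13.86 to 14.23 (median 14.003) and Rims2 from 12.26 to 12.59 (median 12.50), against WT medians of 13.89 and 12.34. Nrxn3 ranged from 12.90 to 13.29 (median 13.04), against a WT median of 12.91.

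Vehicle libraries 1 and 3 were the lowest of their group in the members' mean z-score, so leaving them out raises the members' mean by construction. Without them, a choice made after the data were seen, 10 members were higher, against 9.25% of the 15243 genes then tested. These were Nrxn2, Vamp2, Syn3, Syt7, Nlgn2, Rims2, Unc13b, Sv2b, Syn2 and Cplx2. Of these, Sv2b went from 0.077 with all libraries to 0.30 (SE 0.087, limma adjusted p = 0.023). Without vehicle library 3 alone, 6 members were higher, against 4.55% of all genes then tested. Without vehicle library 40 or WT library 23, 1 was, against 1.69% and 1.77%. The Vamp2 call was lost without vehicle library 40 or WT library 23 or 24 (limma adjusted p from 0.051 to 0.053). The Syn3 call was lost without vehicle library 40 or WT library 21, 22, 23 or 25 (limma adjusted p from 0.052 to 0.061). Against WT libraries 11 to 15 alone only Nrxn2 was called, where 0.449% of all genes were called higher. Against those numbered 21 to 25 no member was, where 1.12% of all genes were, with Nrxn2 at 0.21 (limma adjusted p = 0.093).

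Of the other pathway lists, no vesicle release gene of 52 and no adhesion gene of 42 was called, and 1 of 28 scaffold genes, Tnik, rose by 0.27. Cortical excitatory neuron markers had 7 of 12 above 0 (median 0.011), and Cux2 rose by 0.39. Pan-neuronal markers had 7 of 14 above 0 and inhibitory neuron markers 11 of 15 below 0 (median -0.080), with none called. Among astrocyte markers 10 of 12 were below 0 (median -0.10), and Fgfr3 rose by 0.24. All 14 myelinating oligodendrocyte markers fell (median -0.64, summed level 92646 to 206000 normalised reads in the vehicle libraries and 180260 to 221723 in WT). All 14 striatal markers were below 0 (median -0.75, summed level 17647 to 76990 and 16660 to 93167), with none called. With olfactory bulb and striatal levels as covariates, Nrxn2, Vamp2 and Syn3 were again called higher, against 2.29% of all genes. All 14 immediate early genes were below 0 (median -0.50, summed level 20123 to 66865 and 42714 to 72148), and Egr4 fell. Of 10 endothelial markers 9 were below 0 (median -0.22) and 2 fell, Tek and Pecam1, and of 12 microglia markers 10 were below 0 (median -0.039) and 2 fell, Fcrls and C1qb. The part of these lists in the members' differences was not tested.

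The libraries labelled AKO were compared with WT libraries at 4 months of diet. No member passed the test in limma or in limma-voom, against 0.79% of the 15185 genes tested in limma (0.507% lower, 0.283% higher). At an unadjusted p under 0.05, 3 members were lower, against 7.07% of all genes, and 0 were higher, against 6.91%. In either direction the share of all genes was 14%. The 3 were Cplx1, Vamp1 and Syt2. Differences below 0 were seen for 26 of 34 members, against 47.7% of all genes, with a median of -0.036 against 0.0053. Without library 6 labelled AKO, 22 were below 0 and the median was -0.018. In the 10 libraries of these groups with shared title numbers the direction turned, with 10 of 34 below 0 and a median of 0.036.

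Cplx1 ranged from 14.73 to 15.04 (median 14.89) in the libraries labelled AKO and from 14.92 to 15.19 (median 15.03) in WT. The difference was -0.15 (SE 0.039, limma adjusted p = 0.072), and without library 15 labelled AKO the adjusted p was 0.028. Vamp1 ranged from 12.05 to 12.47 (median 12.30) against 12.27 to 12.78 (median 12.51), a difference of -0.24 (SE 0.068, limma adjusted p = 0.108). Syt2 ranged from 10.12 to 11.07 (median 10.68) against 10.63 to 11.23 (median 11.08), a difference of -0.32 (SE 0.12, limma adjusted p = 0.215). For all 3 genes the ranges of the groups overlapped. Next by p was Sv2a, from 14.14 to 14.56 (median 14.36) against 14.28 to 14.57 (median 14.48), a difference of -0.096 (SE 0.048, limma adjusted p = 0.369). With olfactory bulb and striatal marker levels as covariates, Syt2 and Vamp1 were lower (limma adjusted p = 0.035 and 0.010), against 0.948% of all genes.

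The members called in the other comparisons did not pass the test here. Nrxn2 differed by -0.033 (95% interval -0.12 to 0.054), Nlgn2 by -0.032 (-0.13 to 0.069), Syn3 by 0.0055 (-0.099 to 0.11) and Vamp2 by -0.037 (-0.10 to 0.028). Syn1 differed by -0.10 (-0.22 to 0.014). No gene of the other vesicle release, adhesion and scaffold lists was called. In the same libraries 11 of 14 immediate early genes, which respond to neuronal activity, fell, with a median of -0.96 and summed levels of 20455 to 34656 normalised reads against 42714 to 72148 in WT. Fos fell by 1.66 and Arc by 1.22. Of the striatal markers, 14 of 14 were above 0 (median 0.38, summed level 31888 to 102366 against 16660 to 93167) and none was called. All 14 myelinating oligodendrocyte markers were below 0 (median -0.18, summed level 144617 to 204591 against 180260 to 221723), of which Mobp and Cldn11 fell, by 0.40 and 0.27. Of the olfactory bulb markers 11 of 12 were below 0 (median -0.46, summed level 10616 to 45529 against 9586 to 46463), and of the inhibitory neuron markers 11 of 15 (median -0.14), with none called in either list. Of 12 astrocyte markers 1 fell, Gjb6, by 0.36. The part of these lists in the members' differences was not tested.

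The tamoxifen and vehicle libraries carry the same transgene and address what tamoxifen injection changed. No member passed the test in limma or limma-voom, where 0% of the 15270 genes tested did in limma. At an unadjusted p under 0.05 there were 0 members, against 3.29% of all genes. Of the members 20 were below 0, against 50.6% of all genes, and the median difference was -0.020. This direction rested on single libraries: without tamoxifen library 9, 12 were below 0 and the median was 0.021, and without vehicle library 3, 30 were below 0 and the median was -0.060. The median member had a 95% interval of ± 0.20 around its difference, without adjustment for the number of genes. Calls were adjusted over all genes, so changes of this size, and larger ones, could go uncalled for many members. The members' differences ran from -0.25 to 0.32, and their smallest limma adjusted p was 0.9998.

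The smallest p belonged to Gphn, which ranged from 11.57 to 11.81 (median 11.63) with tamoxifen and from 11.63 to 12.10 (median 11.73) with vehicle, a difference of -0.11 (95% interval -0.22 to 0.0013). Vamp1 ranged from 12.14 to 12.71 (median 12.45) against 11.19 to 12.71 (median 12.32), a difference of 0.20 (-0.089 to 0.49). The lowest vehicle value of Vamp1 was that of library 3, and the difference was 0.085 without it and 0.034 without tamoxifen library 9 and vehicle libraries 1 and 3. Gphn differed by -0.071 without vehicle library 3. Syn3 differed by -0.087 (-0.20 to 0.030, and -0.043 without vehicle library 11) and Nrxn3 by -0.071 (-0.18 to 0.037). The intervals of the genes called against WT were -0.15 to 0.050 for Nrxn2 and -0.13 to 0.032 for Vamp2. No gene of the other vesicle release, adhesion or scaffold lists was called. All 12 olfactory bulb markers were below 0 (median -0.51, summed level 9231 to 55954 normalised reads against 8614 to 127378 with vehicle). All 14 myelinating oligodendrocyte markers were above 0 (median 0.19, summed level 97907 to 195719 against 92646 to 206000). Of 14 striatal markers 8 were above 0 (median 0.078). No gene of these marker lists was called, and their part in the members' differences was not tested. Without tamoxifen library 9 and vehicle libraries 1 and 3, again 0 members and 0 genes were called.

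In none of the 4 comparisons did the groups of any member fail to overlap, against 0.29% of genes between the WT groups, 0.35% between vehicle and WT, 0.125% between the libraries labelled AKO and WT, and 0% between tamoxifen and vehicle. The plot of differences sets the 4 comparisons side by side. Nrxn2 was the member with the smallest p both between the WT groups and between vehicle and WT. Its mean was 14.28 ± 0.11 in the 2-month WT group (SD, n = 9), 14.02 ± 0.089 in the 4-month WT group, 13.99 ± 0.10 in the libraries labelled AKO, 14.26 ± 0.12 with vehicle and 14.21 ± 0.078 with tamoxifen (SD, n = 10 each). These comparisons share the WT 4-month libraries, so their differences are not independent.

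**Figure D5:**
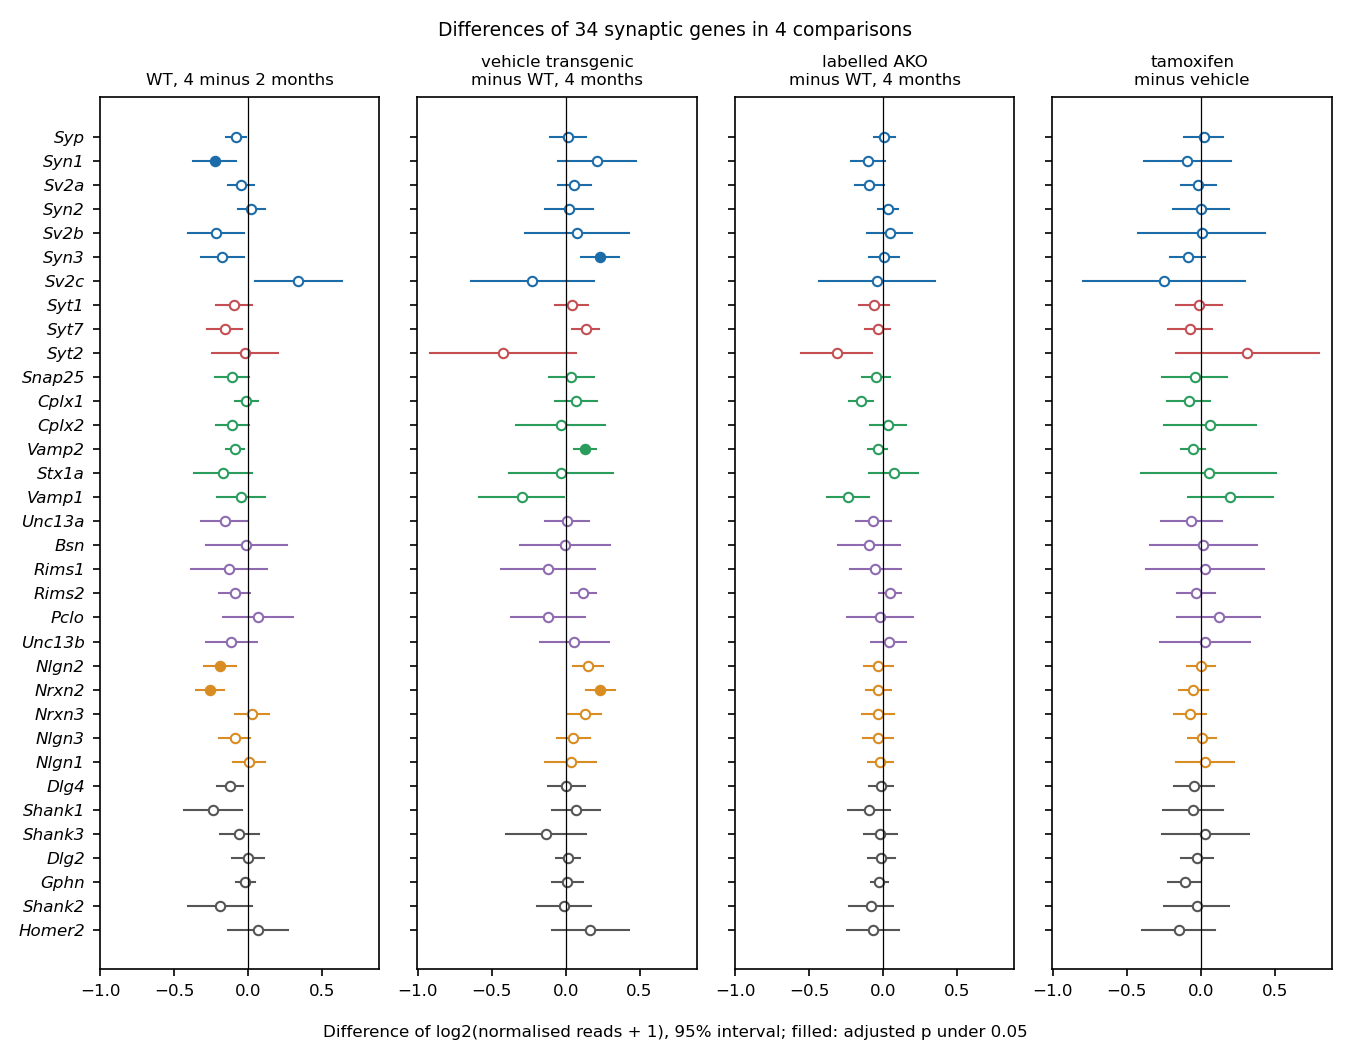
Difference of log2(normalised reads + 1) for each of the 34 members in the 4 comparisons, with the 95% interval from limma. Filled points have an adjusted p under 0.05 over all genes tested: Nrxn2, Nlgn2 and Syn1 below 0 between the WT groups, Nrxn2, Vamp2 and Syn3 above 0 between vehicle and WT, and none in the other 2 panels.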

How the data were processed

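RNA from frontal cortex was sequenced after library preparation with the Illumina TruSeq Stranded mRNA kit, per the labels' protocols. No source used here names the aligner, genome build or normalisation tool. The deposited table holds log2 values. Judged from the values themselves they are log2(reads divided by a size factor + 1): 99.92% to 100.00% of values up to 200 reads lay within 0.1 of a whole read. Of 50 value columns, 1 matched no sample and was not used, and 7 genes without whole reads were left out.

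Groups come from the sample titles. The 4 comparisons were fitted on the deposited values with limma 3.58.1 (limma-trend, robust, R 4.3.3), each on its own groups. A gene was tested if it reached 10 reads, scaled to a library of median depth, in at least the size of the smaller group, and had 15 reads over all. All 34 members passed in each comparison. P-values are two-sided and were adjusted by the Benjamini-Hochberg method over all genes tested. The code was tested on simulated data. No pair of libraries within a group agreed within sampling noise (smallest chi-square per gene 6.62).

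The members and lists were chosen with earlier results of these data known. Named are members past the threshold, up to 4 further members per comparison with the smallest p, and up to 4 called genes per list. Intervals are 95% and cover the spread between libraries. Alternatives covered the pseudocount, the filter, limma-voom, robustness, array weights, scaling, pooling, covariates and libraries left out.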

Additional observations from a re-analysis of the deposited data

Results flagged for a closer look

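Within each group, 19 members were checked for a library far from the others, in 95 combinations of member and group, and 8 stood out. A gap of this size is expected by chance in about 1 of 20 groups. The values are log2(normalised reads + 1).

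Of the 8, 3 were low values of WT 2-month library 37. Syt7 was at 13.67 there with the next lowest at 14.001, Sv2b at 14.55 with the next at 14.90, and Rims2 at 12.10 with the next at 12.44. Tamoxifen library 9 was lowest for Sv2b at 13.65, with the next at 14.68, and for Shank1 at 13.33, with the next at 13.82. Vehicle library 3 was lowest for Vamp1 at 11.19, with the next at 11.95.

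The other 2 were high values in vehicle libraries that were not low in cortical markers. Syn1 reached 15.85 in library 41, with the next highest at 14.99, and Syn3 reached 11.39 in library 11, with the next at 11.03. No explanation of these values was tested.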

How the results depend on the processing

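Of the members followed across the alternatives (those called and the next by p in each comparison), none changed sign. The number of members called lower between the WT groups was 3, where 4.18% of all genes were lower. It became 11 with array quality weights (8.4% of all genes) and 1 with olfactory bulb and striatal covariates (0.383%). It was 0 with WT 4-month libraries 21 to 25 alone (0.0902%) and 14 without WT 2-month library 37 (10.1%). Leaving out 1 library at a time gave 2 to 14, with 2.28% to 10.1% of all genes lower. The number called higher between vehicle and WT was 3, where 2.59% of all genes were higher. It became 6 with array weights (8.18% of all genes) and 6 with scaling to library totals (2.26%). It was 1 with WT libraries 11 to 15 alone (0.449%), 0 with those numbered 21 to 25 (1.12%) and 10 without vehicle libraries 1 and 3 (9.25%). Leave-one-out gave 1 to 6, with 1.69% to 4.55% of all genes higher. Between the libraries labelled AKO and WT the number called lower was 0 (0.507% of all genes) and became 2 with the covariates (0.948%). Leave-one-out there gave 0 to 1, with 0.25% to 0.867% of all genes lower. Between tamoxifen and vehicle the number of members called was 0 in each alternative run, as was that of all genes. The causes were not tested. The split and left-out fits also had smaller groups, and the part of group size was not tested either. Other settings (pseudocount 5, filters, limma-voom, no robust shrinkage, 1 model of 49 libraries) kept these counts within 1.5 times, though the Syn1 call was lost with no filter and in the model of 49 libraries.

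AKO and WT libraries share 5 title numbers. Same-numbered libraries correlated at -0.24 (number 12), -0.29 (13), 0.14 (14), 0.11 (15) and 0.048 (21). Only number 21 correlated best with its own number. The labels do not explain the numbers, and these correlations cannot tell whether same-numbered libraries share an origin. With the replicate block 0 members were called, as without it in the same 10 libraries, against 0.0782% and 0.0847% of all genes. The other comparisons share fewer than 2 numbers.

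Reads limit the members little, since the lowest read number was 197.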

Other observations

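Ratios between paralogues, computed per kb of merged exons within each library, differed in their group medians. No test was run on them. The Syn1 to Syn2 ratio had a median of 2.63 in WT at 2 months (2.27 to 2.91), 2.25 in WT at 4 months (1.96 to 2.44) and 1.89 in the libraries labelled AKO (1.86 to 2.40). It was 2.43 with vehicle (2.15 to 4.25) and 2.40 with tamoxifen (2.02 to 2.64). The Nrxn2 to Nrxn3 ratio had a median of 2.44 in WT at 2 months (1.86 to 2.57), 1.98 in WT at 4 months (1.65 to 2.20) and 1.95 in the libraries labelled AKO (1.66 to 2.26). It was 2.06 with vehicle (1.79 to 2.36) and 2.13 with tamoxifen (1.90 to 2.29). The ranges of the groups overlapped for both ratios.

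The lowest Cplx2 to Cplx1 ratio was 0.289 in the vehicle group, 0.606 in the tamoxifen group and 0.678 in WT at 4 months. The group medians lay between 0.893 and 1.01.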
